A study of Mus musculus with 4 samples.

Results

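The immediate-early AP-1 and stress genes described here are *Fos*, *Fosb*, *Jun*, *Junb*, *Jund*, *Atf3*, *Ier2*, *Dusp1*, *Zfp36* and *Nr4a1*, 10 genes of the 32286 features counted, each found in the feature lists by its symbol. The question asked was where in dorsal skin these genes were high and whether they moved together. The data were spatial transcriptomics of 4 slices of fresh-frozen dorsal skin at P38 from *Krox20-CreERT; R26-tdTomato* mice, and every slice carried sections of the same 3 mice, so the slices are technical replicates. All of the mice had 4-hydroxytamoxifen at P2, which lets the CreERT recombinase, expressed from the *Krox20* locus, switch on the tdTomato reporter, and no group without the alleles or the drug was included. Each barcoded spot captures polyadenylated RNA from a patch of tissue that can hold several cells. Spots were placed in 10 compartments by marker genes, none of which is one of the 10 genes, and their distance from the nearest epidermal spot was counted in steps of the spot grid. Of 6420 deposited spots, 6411 were kept and 105 of these were placed in no compartment.

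AP-1 is a dimer of basic leucine zipper proteins from the Fos and Jun families, and it binds DNA near genes of growth, differentiation and stress. Immediate-early genes are transcribed soon after a growth factor, wound, ultraviolet light or other stimulus, without new protein synthesis, and their mRNAs are short-lived. In epidermis, AP-1 is known as a regulator of keratinocyte differentiation genes. The same stimuli switch on their own brakes: *Dusp1* encodes a phosphatase that inactivates MAP kinases, and *Zfp36* encodes tristetraprolin, which binds AU-rich mRNAs and hastens their decay. A common way to immediate-early transcription runs through CREB-family factors, which bind the cAMP response element (CRE) with TGACG at its core.

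The stretches of 250 bases before the transcription start of *Fos*, *Fosb* and *Dusp1*, the 3 genes whose pairs had the highest correlations when spots were ranked within slice and compartment, are shown with that of *Junb*, which differed from them in its profile. They are given 5′ to 3′ on the strand of the gene from RefSeq on GRCm38.p6, at chr12:85473640-85473889 (+) for *Fos*, chr7:19310046-19310295 (-) for *Fosb*, chr17:26508473-26508722 (-) for *Dusp1* and chr8:84978749-84978998 (-) for *Junb*. Capitals mark TGACG on either strand, and overlapping matches run together.
Fos: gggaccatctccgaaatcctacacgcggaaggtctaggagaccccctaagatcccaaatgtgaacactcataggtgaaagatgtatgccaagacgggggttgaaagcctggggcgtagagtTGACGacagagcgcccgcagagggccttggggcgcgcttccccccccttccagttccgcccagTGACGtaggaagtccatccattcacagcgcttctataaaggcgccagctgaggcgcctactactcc
Fosb: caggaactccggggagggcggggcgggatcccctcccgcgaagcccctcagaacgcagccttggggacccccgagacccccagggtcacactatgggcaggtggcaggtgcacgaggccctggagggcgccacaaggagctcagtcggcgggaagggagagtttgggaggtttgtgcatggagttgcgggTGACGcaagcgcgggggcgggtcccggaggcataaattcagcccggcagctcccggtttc
Dusp1: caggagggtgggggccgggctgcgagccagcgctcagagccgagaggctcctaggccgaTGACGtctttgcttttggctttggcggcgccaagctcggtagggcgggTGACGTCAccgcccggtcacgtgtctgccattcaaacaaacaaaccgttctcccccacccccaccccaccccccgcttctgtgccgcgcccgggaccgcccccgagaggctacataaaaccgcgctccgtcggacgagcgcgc
Junb: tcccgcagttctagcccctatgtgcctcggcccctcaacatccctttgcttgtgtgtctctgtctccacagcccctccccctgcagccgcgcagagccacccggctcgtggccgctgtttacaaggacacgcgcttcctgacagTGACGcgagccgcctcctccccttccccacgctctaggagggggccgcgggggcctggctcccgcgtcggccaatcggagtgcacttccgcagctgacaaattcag
TGACG began 129 and 66 bases before the start in *Fos*, 60 in *Fosb*, 106 in *Junb* and 191, 143 and 140 in *Dusp1*, where the matches at 143 and 140 are the 2 strands of a full TGACGTCA. Of the 10 genes, 9 had a window, and TGACG was present in 6 of these, which besides the 4 shown are *Atf3* and *Nr4a1*, against 17.9% of 27025 mouse promoter windows of this length. The full TGACGTCA occurred in 1.62% of windows and the AP-1 letters TGANTCA in 6.87%, the latter in none of the 9. *Zfp36* held a CArG box (1.4% of windows), and *Fos* a TATAAA that began 33 bases before the start (13% of windows). These matches are descriptions of letters within the window. A single RefSeq start was used per gene, and other starts were not examined. It lay 1210 bases from the 5′ end of the GENCODE gene for *Jund*, 1025 for *Zfp36*, 12577 for *Nr4a1*, 34706 for *Atf3* and 53656 for *Dusp1*.

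In the gene annotation on GRCm38, which GENCODE calls M21, *Fos* lies at chr12:85473890-85477273, *Fosb* at chr7:19302696-19310051, *Dusp1* at chr17:26505590-26562128 and *Jun* at chr4:95049034-95052222. *Junb* (chr8:84974484-84978718), *Ier2* (chr8:84661331-84662852) and *Jund* (chr8:70698949-70700616) share a chromosome, while *Zfp36* is at chr7:28376784-28380253, *Nr4a1* at chr15:101254269-101274795 and *Atf3* at chr1:191170296-191218039. The UMIs of each gene over all spots numbered 11998 for *Junb*, 11493 for *Jund*, 8716 for *Ier2*, 7496 for *Jun*, 3051 for *Dusp1*, 2526 for *Zfp36*, 2313 for *Fos*, 476 for *Nr4a1*, 313 for *Fosb* and 300 for *Atf3*, and the last 3 were found in 4.07% to 6.89% of spots.

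The slices held 19393026 to 26910422 UMIs, with 11662 to 14627 in the median spot. Epidermal spots numbered 514, upper follicle 505, sebaceous gland 335, outer root sheath 800, inner root sheath 752, hair matrix 773, hair shaft 815, dermal fibroblast 415, adipose 560 and skeletal muscle 837, and hair shaft spots were uneven between slices (400, 211, 129 and 75). All 12 epidermal, 10 sebaceous, 10 fibroblast and 10 muscle markers were highest in their own compartment, whereas 5 of 10 outer root sheath markers were, so that this compartment is the least certain. A 1840-barcode overlap between slices comes from the shared slide layout. Levels are CPM, the UMIs of a gene as a share of all UMIs of the same spots on the usual scale of CPM, and since each transcript gives a UMI at its 3′ end they do not scale with gene length. A lower level in a compartment cannot tell fewer expressing cells from less RNA per cell.

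*Fos* encodes the labile partner of Jun proteins in AP-1. Its level in epidermal spots was 147.3, 175.0, 172.9 and 158.7 CPM in slices 1 to 4. Upper follicle spots followed with 48.83, 38.29, 51.51 and 65.50 CPM, and hair shaft spots were at the other end with 9.223, 6.748, 4.786 and 4.567. The lowest epidermal slice lay above every slice of the other 9 compartments. In order of their means, epidermis (163.5 ± 12.96 CPM, SD, n = 4 slices) stood clear, upper follicle (51.0), sebaceous gland (43.8), fibroblast (37.5) and outer root sheath (28.1) overlapped each with the next, muscle (15.7 ± 6.40) overlapped both adipose (21.1 ± 2.06) and inner root sheath (8.84), and the last of these, hair matrix (7.42) and hair shaft (6.33) could not be ordered within their spread. Compared with the mean of the other compartments, *Fos* was higher in the epidermis with a log2 fold change of 3.07 and a standard error, given after ± for every fold change, of 0.10 (edgeR's quasi-likelihood test with Benjamini-Hochberg adjustment, adjusted p = 6.17e-29). It was also higher in upper follicle (1.19), sebaceous gland (0.93) and fibroblast spots (0.64) and lower in hair matrix (-1.92), hair shaft (-1.63), inner root sheath (-1.51) and muscle (-0.69).

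*Fosb* is the close relative of *Fos* and far less abundant, with 313 UMIs in all. Epidermal spots gave 34.27, 37.65, 31.53 and 28.06 CPM, whereas hair matrix spots gave 0.796, 0.204, 0.421 and 0.841. No other compartment exceeded 9.283 CPM in any slice. The log2 fold change in the epidermis was 4.12 ± 0.22 (adjusted p = 1.6e-21, edgeR), the largest of the 10 genes. Few UMIs stood behind the rest of its profile, between 5 in inner root sheath and 28 in upper follicle spots, and the calls for fibroblast (1.04, adjusted p = 0.0249 in edgeR) and hair shaft spots (-1.05, adjusted p = 0.0421) were lost without replicate 1, 2 or 4.

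*Dusp1*, the MAP kinase phosphatase, had almost the profile of *Fos*. It reached 197.6, 217.8, 187.0 and 236.1 CPM in epidermal spots. Sebaceous gland spots had 88.20, 59.85, 62.33 and 84.97 CPM, upper follicle spots 70.53, 57.43, 70.44 and 84.54, and hair shaft spots 10.16, 10.80, 7.777 and 2.284. Epidermis was again above every other slice and compartment, while sebaceous gland and upper follicle overlapped. The epidermal log2 fold change was 3.06 ± 0.11 (adjusted p = 4.17e-28, edgeR). It was higher in sebaceous gland (1.35), upper follicle (1.30) and fibroblast spots (0.81) and lower in hair matrix (-2.02), hair shaft (-1.70), inner root sheath (-1.70), adipose (-0.73) and outer root sheath (-0.50), the last lost without replicate 2. *Fos* was lower in muscle, where *Dusp1* was not called (0.16 ± 0.13).

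*Junb*, a Jun-family partner that accumulates with differentiation and restrains proliferation, had another profile. Hair shaft spots gave 178.1, 172.7, 208.8 and 218.1 CPM and epidermal spots 206.7, 147.5, 167.4 and 182.9, with overlapping ranges. Hair matrix spots, where follicle keratinocytes divide, were lowest at 77.21, 78.02, 104.9 and 103.7 CPM. *Junb* was higher in hair shaft (log2 fold change 0.81 ± 0.07), epidermis (0.47 ± 0.08) and inner root sheath (0.30 ± 0.07) and lower in hair matrix (-0.66), fibroblast (-0.42), adipose (-0.28) and muscle spots (-0.24), all at adjusted p of 0.0137 or less in edgeR. The adipose and muscle calls were lost without the hair shaft spots (-0.20 and -0.13).

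*Jund*, the Jun protein usually present without a stimulus, had its highest means in upper follicle spots (208.1 ± 13.1 CPM) and epidermal spots (194.4 ± 14.2), which overlapped. Sebaceous gland (149.3 to 218.7 CPM over slices) and fibroblast spots (145.2 to 195.1) overlapped both. It was higher in upper follicle (0.63), epidermis (0.55), sebaceous gland (0.33), fibroblast (0.28) and hair shaft (0.24), though with library size alone the hair shaft value was 0.02 and no longer called. It was lower in hair matrix (-0.96), muscle (-0.68) and adipose spots (-0.39). *Jun*, the founding Jun gene, peaked in upper follicle (122.9 ± 14.8 CPM), epidermis (115.7 ± 6.35) and outer root sheath (108.1 ± 5.32), where it was called higher (0.53, 0.46 and 0.32), and its lower calls were confined among the 10 compartments to hair matrix (-0.48), hair shaft (-0.43) and inner root sheath (-0.38).

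*Zfp36* rose in the epidermis by 0.82 ± 0.14 (48.55, 48.84, 34.79 and 61.93 CPM) and in hair shaft spots by 0.42 ± 0.12, and fell in hair matrix (-0.74) and muscle (-0.47). The hair shaft value was 0.19 and not called with library size alone. *Ier2*, a small immediate-early nuclear protein, was the flattest of the abundant genes. Its compartment means ran from 66.5 ± 11.0 CPM in muscle to 111.9 ± 4.42 in epidermis, with calls higher in epidermis (0.25, lost without replicate 2 and without replicate 4) and inner root sheath (0.25) and lower in muscle (-0.53). *Nr4a1*, an orphan nuclear receptor, had its highest mean in skeletal muscle, at 10.08, 10.97, 13.12 and 14.16 CPM against 9.709, 11.19, 4.349 and 11.61 in the epidermis. The ranges overlapped, epidermis was above muscle in slice 2, and both were called higher (1.41 ± 0.16 and 0.98 ± 0.24). Of its 3 higher calls the remaining one was in upper follicle spots (7.778 CPM). Its 3 lower calls were in hair matrix (3.104), inner root sheath (3.054) and hair shaft spots (1.970). *Atf3*, the stress-induced ATF-family gene, had 300 UMIs, compartment means of 1.87 to 5.20 CPM and no call in any compartment (adjusted p from 0.0856 to 0.89, edgeR).

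**Figure D1:**
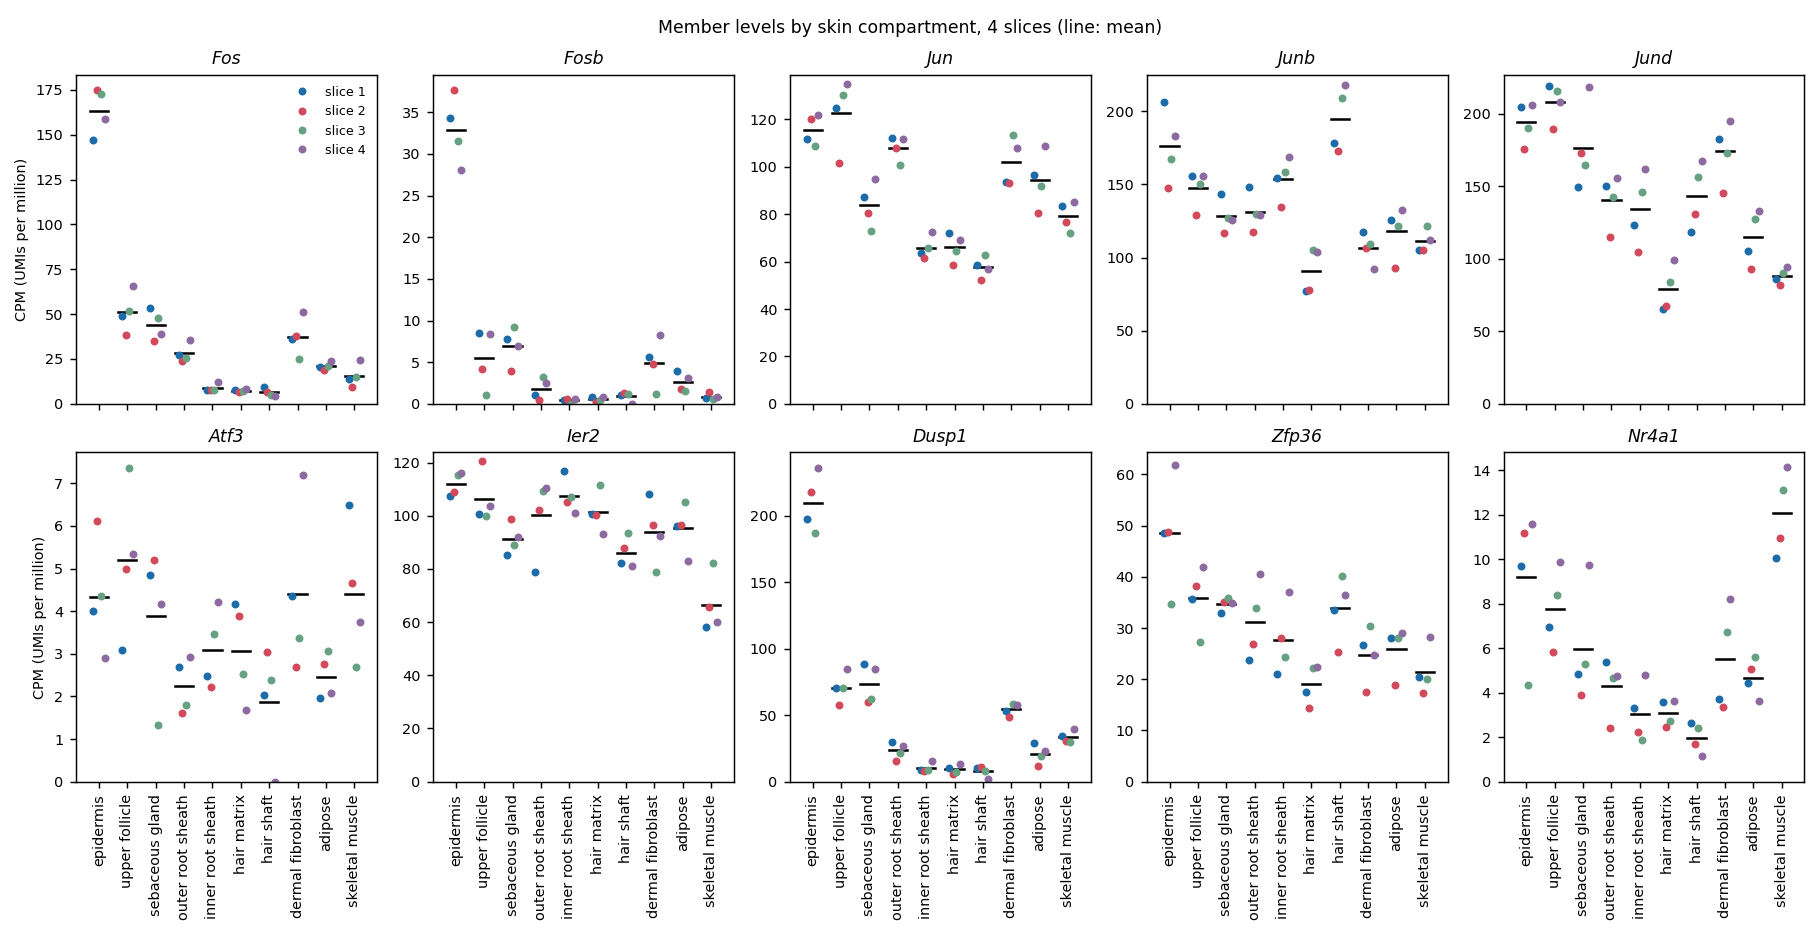
Level of each AP-1 and stress gene (CPM, linear axis from 0, its own scale per gene) in 10 skin compartments, with a point per slice and a line at the mean of 4 slices. *Fos*, *Fosb* and *Dusp1* share an epidermal peak (means 163.5, 32.88 and 209.6 CPM), *Junb* has a second high in hair shaft spots (194.4) and *Nr4a1* has its highest mean in muscle (12.08), with a range that overlaps the epidermis.

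By compartment, 9 of the 10 genes were higher in the epidermis, where 21.8% of the 12291 genes tested were called higher, with a median log2 fold change of 0.69 against -0.04 over all genes. In hair matrix, 8 were lower, against a background of 36.6%, with a median of -0.78. Upper follicle had 6 higher (background 20%), sebaceous gland 4 (18.9%), fibroblast spots 4 higher (17.9%) and 1 lower (10.9%), and outer root sheath 1 higher (15%) and 1 lower (14%). The differentiating hair lineages were mixed: hair shaft had 3 higher (20.4%) and 5 lower (21.3%), and inner root sheath 2 higher (23.4%) and 5 lower (27.1%). Muscle had 1 higher (25.4%) and 6 lower (26.3%), and adipose 3 lower (4.94%). All p-values here rest on slices of the same 3 mice and carry no spread between mice. Only the *Fos* and *Junb* classes and the alternative fits named as such had the slice as a block. In the other fits, that of the compartments included, sums of the same slice entered as independent. The p-values of the position strips over all compartments, given below, also rest on several sums per section. With spots thinned to 5500 UMIs, the calls of lower genes over all compartments went from 29 to 19.

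The share of spots with a UMI also depends on the UMIs per spot and did not follow the levels for every gene, as *Jund* was found in 78.0% of hair matrix spots (78.93 CPM) and 76.9% of epidermal spots (194.4 CPM). *Fos* was found in 64.2% ± 4.75 of epidermal spots and 8.15% of hair shaft spots, and after thinning in 54.6% ± 1.05 of 432 and 4.03% ± 0.620 of 763. *Dusp1* was found in 76.8% of epidermal spots, and in 63.5% ± 3.68 and 4.25% ± 2.23 of the same thinned spots. The order of epidermis and hair shaft was thus the same at equal depth. RNA that spreads over the slide also gives UMIs, and the low shares in hair shaft and hair matrix spots do not show expression there.

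The macrophage and MHC class II score was also high in the epidermis, with a median of 0.957 SD against -0.685 in hair shaft and -0.695 in hair matrix spots, and it was 1.01 in fibroblast spots. The mitochondrial share of UMIs was 4.68% ± 0.811 in epidermal, 3.21% in hair matrix and 7.95% in muscle spots. The part of either in the levels was not tested.

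Levels were also followed by distance from the epidermis, where step 0 is by construction the epidermal compartment, so that the first step and the surface restate part of the compartment contrast. *Fos* averaged 163.5 CPM at 0 steps, 53.16 at 1, 36.07 at 2, 27.32 at 3 and 9.503 at 4, and stayed between 7.136 and 11.25 from step 5 on. *Dusp1* went from 209.6 through 82.07, 42.37 and 19.26 to 11.96 CPM at step 4, was lowest at step 5 (9.649) and was 22.88 ± 3.54 at 9 or more steps, which 3 slices reached. *Fosb* went from 32.88 to 8.405, 3.430 and 1.729 CPM over the first steps. Between steps 0 and 1 the ranges over slices did not overlap for any of these 3 genes.

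*Junb* did not follow them into depth. It was 176.2 ± 25.0 CPM at 0 steps, 125.8 at 2, 157.6 ± 10.6 at step 4 and 95.58 at step 8, so that the lowest slice at step 4 (145.5) lay above the highest at step 2 (139.0). *Jund* was level over the first steps (194.4, 193.1 and 175.6 CPM) and then lower, down to 73.50. *Nr4a1* was lowest at step 3 (2.781 ± 0.884 CPM) and 9.871 ± 4.11 at 9 or more steps, beside its surface level of 9.216 ± 3.35. *Ier2* lay between 83.60 and 111.9 CPM over steps 0 to 8 and at 64.71 beyond.

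**Figure D2:**
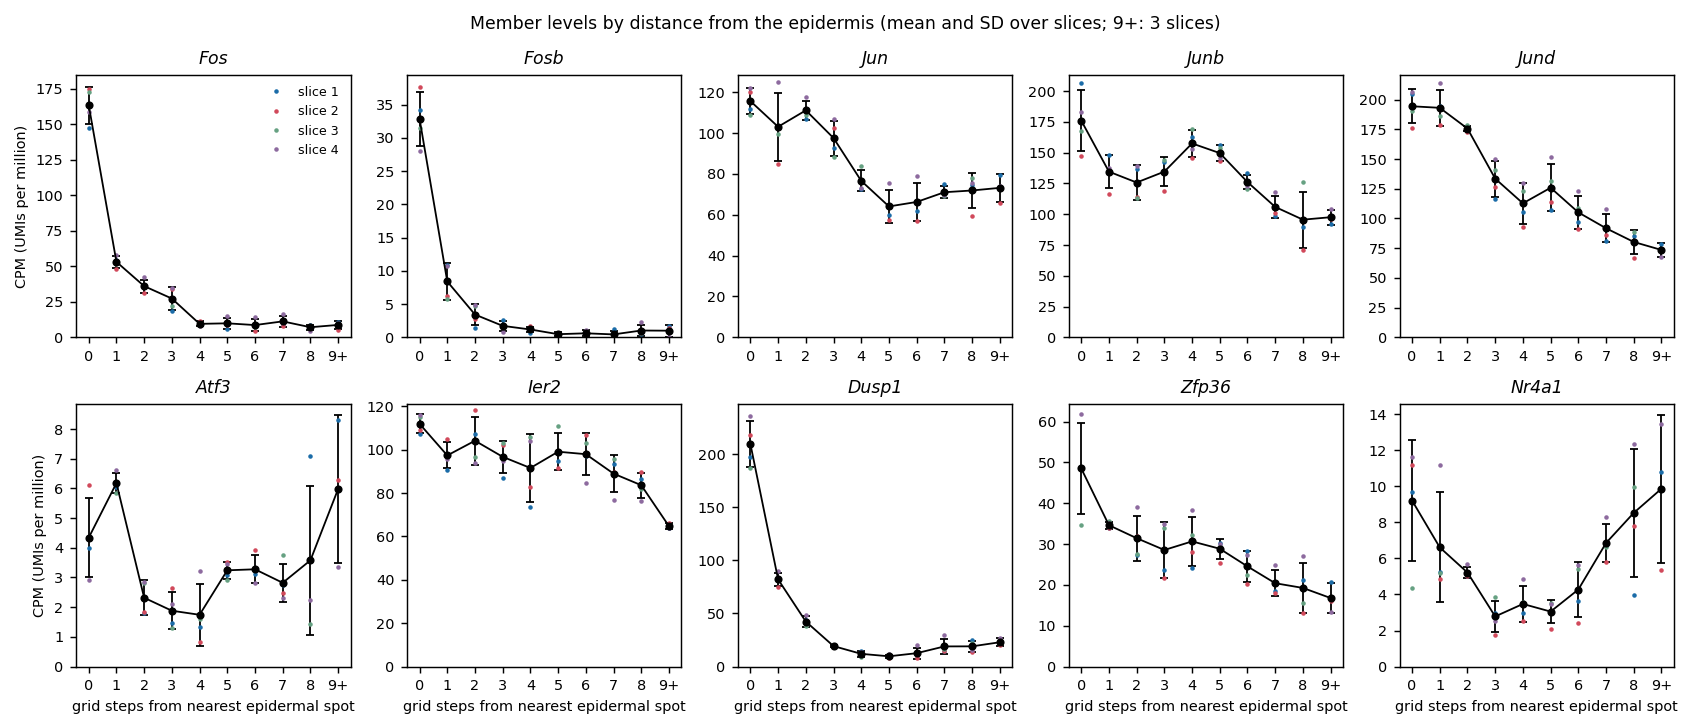
Level of each gene (CPM, linear axis from 0) against grid steps from the nearest epidermal spot, with small points for slices and black points with bars for the mean and SD. *Fos*, *Fosb* and *Dusp1* drop at the first step (to 53.16, 8.405 and 82.07 CPM), *Junb* has a second high at step 4 (157.6) and *Nr4a1* a low at step 3 (2.781).

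The 1300 spots at 0 or 1 step were compared with the 3502 at 4 or more. *Fos* gave 92.88, 99.62, 96.99 and 92.70 CPM at the surface and 8.377, 7.543, 9.197 and 12.64 in the depth, which was 3.37 ± 0.11 on the log2 scale (adjusted p = 5.27e-13, edgeR). *Fosb* (4.64), *Dusp1* (3.18), *Jund* (0.92), *Atf3* (0.77 ± 0.20), *Zfp36* (0.72), *Jun* (0.65), *Nr4a1* (0.61) and *Junb* (0.27) were higher too. This made 9 of 10 genes, against 32.7% of 13396 genes called higher, and the medians were 0.74 for the list and -0.03 for all genes. *Ier2* was not called (0.17 ± 0.07, adjusted p = 0.063), but was with the slice as a block (adjusted p = 0.0202). The *Junb* call was lost without replicate 1, 3 or 4, the *Nr4a1* call without replicate 2 or 4, and *Atf3* was not called between 0 steps and 3 or more. Markers of other cells differed along with the genes: 12 of 12 epidermal, 9 of 10 upper follicle, 9 of 9 sebaceous gland, 9 of 10 fibroblast, 5 of 5 T cell, 10 of 10 macrophage and MHC class II (summed level 1468 to 2231 CPM at the surface and 207.7 to 252.4 in the depth) and 7 of 10 smooth muscle markers were higher at the surface. All 10 skeletal muscle, 10 adipose, 10 hair matrix, 9 hair shaft and 6 melanocyte markers tested and 9 of 10 inner root sheath markers were lower there. Their part in the difference was not tested.

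Dermal fibroblast spots allowed a comparison inside a compartment, between 290 spots at 1 or 2 steps and 125 at 3 or more. *Dusp1* was 60.10, 59.96, 68.80 and 71.99 CPM near and 30.39, 27.30, 35.87 and 29.85 far, with no overlap (1.09 ± 0.21, adjusted p = 0.000678, edgeR). *Jund* was 199.5, 158.2, 186.7 and 223.8 near and 124.3, 120.9, 143.5 and 140.3 far (0.56 ± 0.14, adjusted p = 0.0144). *Fos* was 40.87, 41.35, 29.49 and 65.73 near and 19.34, 31.20, 14.35 and 23.88 far (0.91 ± 0.29, adjusted p = 0.0493), where the lowest near slice lay below the highest far one. These were 3 of 7 genes tested, against a background of 5.01% of 7019 genes. The *Fos* call was lost without any single replicate and with DESeq2 or library size alone, and the *Jund* call without replicate 1 or 4, so that *Dusp1* alone was called there. Skeletal muscle markers differed most, with 10 of 10 lower in the near spots and a median of -3.03, and 4 of 5 Schwann cell markers were lower too (median -1.51). All 10 epidermal markers tested were higher in the near spots, as were 5 of 7 upper follicle markers, 6 of 8 sebaceous gland markers, 4 of 9 macrophage and MHC class II markers (their summed level was 1625 to 2602 CPM near and 949.5 to 1400 far) and 6 of 9 smooth muscle markers. The part of these cells in the difference was not tested.

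**Figure D3:**
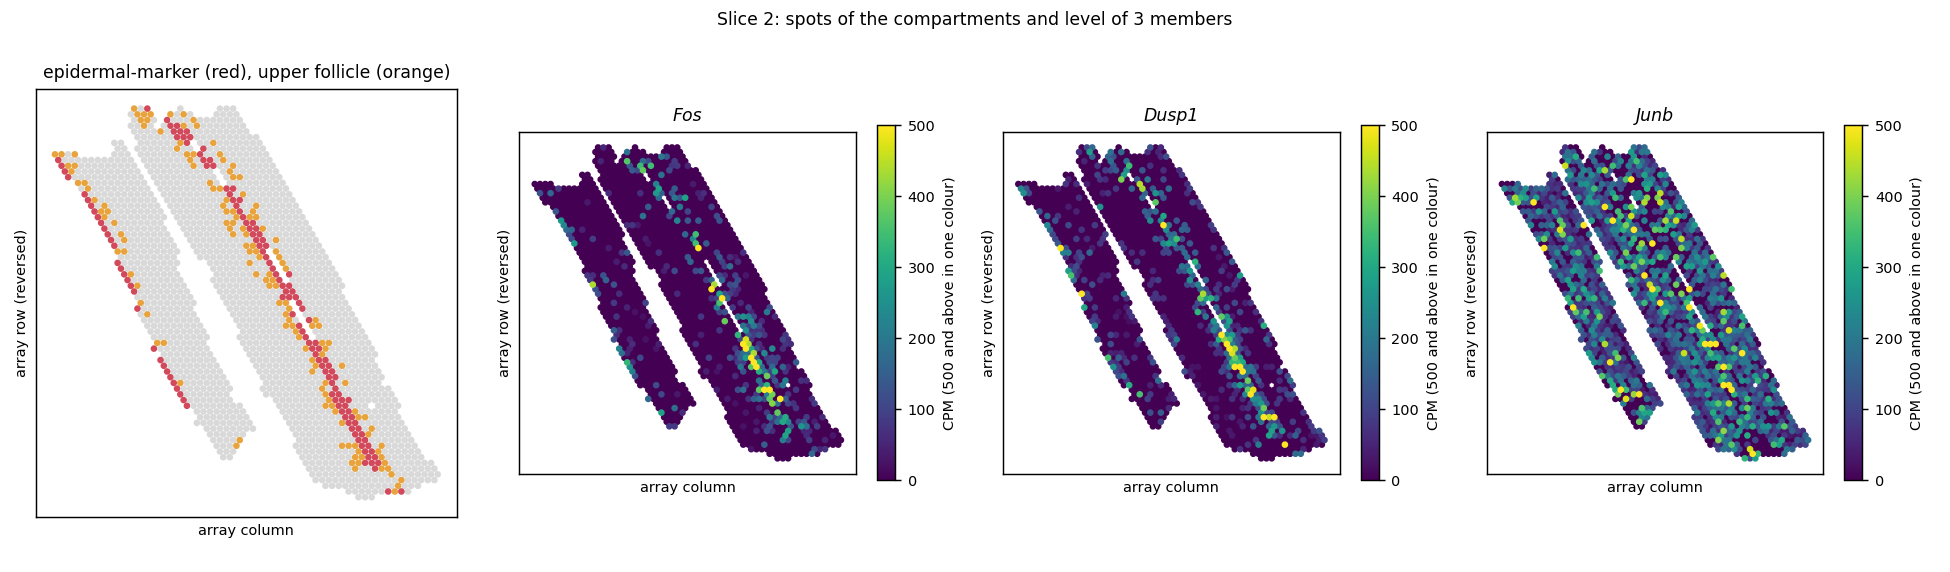
Spots of slice 2 at their array positions, coloured by compartment (left) and by the level of *Fos*, *Dusp1* and *Junb* (CPM, with 500 and above in one colour). *Fos* and *Dusp1* are high along the red epidermal lines and highest along the lower part of the line shared by 2 sections, whereas *Junb* is spread over the whole tissue.

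Along the epidermis the level was not even. In every slice 2 sections lie with their epidermal sides against each other, and this line was cut into 4 segments of equal numbers of epidermal spots, numbered from the top, after the map had been seen and therefore as a description. *Fos* was 79.88, 104.2, 89.23 and 81.99 CPM in segment 1 of slices 1 to 4, 125.3, 136.8, 166.3 and 62.79 in segment 2, 229.2, 284.3, 370.6 and 277.3 in segment 3 and 223.6, 234.9, 189.9 and 199.5 in segment 4. Both lower segments were above both upper ones in all 4 slices. *Dusp1* had means of 164.5, 148.6, 330.3 and 261.0 CPM from top to bottom and *Fosb* 17.01, 12.43, 66.64 and 53.10. In slice 3, *Dusp1* was lower in segment 4 (170.9) than in segment 2 (181.4). *Zfp36* had means of 39.29, 29.97, 56.33 and 61.99 CPM, on 3 to 19 UMIs per segment and slice. Its lower segments were also above both upper ones in all 4 slices. *Nr4a1* was 21.96 ± 8.16 in segment 3 and had means of 7.234 to 8.027 in the others. Its values rest on 2 to 7 UMIs per slice in segment 3 and 0 to 6 in the others. In slice 1, segments 3 and 4 were close, at 20.52 and 18.38 CPM with 6 UMIs each. *Jund* (215.5, 212.4, 202.6 and 185.2) and *Ier2* (127.3, 98.00, 107.2 and 122.6) did not share the pattern. The segments held 20 to 26 epidermal spots per slice, and the median UMIs per spot also ran higher downwards, from a mean of 6836 in segment 1 to 8822 in segment 3 and 10820 in segment 4, whereas the mitochondrial share was 4.74% to 4.95% in all. Strip 3, counted in the position strips described next, held 41.6%, 86.0%, 39.6% and 33.5% of the spots of segments 1 to 4. The part of depth and of the section in this pattern was not tested.

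Spots were divided by position into 3 strips per slice, since the labels do not say which mouse lies where. *Xist* made up 85.3% to 92.0% of the UMIs of *Xist* and 4 Y-linked genes in strip 3 and 7.82% to 14.1% in the others. Section, mouse and sex can therefore not be told apart in the comparisons of strip 3. Over all compartments, sums were taken per slice, strip and compartment, so that several sums of the same section were treated as independent. The p-values of this fit are therefore too small to be read as spread between slices. With the compartment in the model, *Fos* was lower in strip 1 (-1.0 ± 0.14, adjusted p = 5.63e-09, edgeR) and higher in strip 3 (0.81 ± 0.12, adjusted p = 4.26e-08). Its level over all spots of the strips was 15.86 ± 3.93, 25.50 ± 5.997 and 34.44 ± 1.66 CPM. *Dusp1*, *Jun* and *Jund* were lower in strip 1 (-0.33, -0.17 and -0.14) and *Dusp1* and *Jun* higher in strip 3 (0.27 and 0.20), which gives 4 lower against a background of 6.84% of 8099 genes and 3 higher against 9.49%, of 7 tested. *Junb*, *Ier2* and *Zfp36* were not called in any strip. In epidermal spots alone the order was another one. *Fos* was 113.0 ± 9.87, 235.5 ± 23.6 and 134.0 ± 18.8 CPM in strips 1 to 3, so strip 2 was highest (0.94 ± 0.12, adjusted p = 0.000275), together with *Dusp1* (0.76 ± 0.13, adjusted p = 0.00856), which made 2 of 8 genes against 0.0898% of 5569. *Fos* was lower in strip 1 (-0.65, adjusted p = 0.0431), as the only one of 8 against 0.144%. Strips 2 and 3 meet at the shared epidermal line, where a spot can hold both sections and the nearest epidermal spot can belong to the neighbour. Their boundary was set at the median position of the epidermal spots outside strip 1, so it divides these spots by construction. Strip 3 held 86.0% of the spots of segment 2 but 39.6% and 33.5% of those of segments 3 and 4. The part of the segments in the strip 2 difference was not tested.

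Whether the genes moved together was asked first of the compartments and then of single spots. Over the mean levels of 10 compartments, which share their slices, the Spearman correlation was 0.95 between *Fos* and *Dusp1*, 0.89 between *Fos* and *Fosb*, 0.89 between *Fos* and *Jun*, 0.87 between *Jund* and *Zfp36* and 0.79 between *Junb* and *Zfp36*. *Junb* stood at 0.10 with *Fos* and 0.03 with *Dusp1*. The 10 genes therefore did not share a single profile over the compartments. These values describe 10 points with no test.

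Over spots of the same slice and compartment, correlations were low. Values were ranked after centring, as designed, and also within each slice and compartment, because centring orders the many spots without a UMI by the mean of their compartment. The median over 45 pairs was 0.0424 with the first and 0.0271 with the second ranking, with 24 and 20 pairs above 0 in all 4 slices. Ranked within, the highest pair was *Fos* and *Dusp1* at 0.139 ± 0.012 (SD over slices, 0.148, 0.121, 0.143 and 0.144), before *Fos* and *Fosb* at 0.126 ± 0.006 and *Fosb* and *Dusp1* at 0.094 ± 0.031. After centring these were 0.230, 0.275 and 0.183, and they were not the 3 highest there, since *Atf3* with *Nr4a1* (0.384) lay above all of them and *Fosb* with *Nr4a1* (0.208), *Fos* with *Nr4a1* (0.200) and *Fosb* with *Zfp36* (0.194) above *Fosb* with *Dusp1*. Ranked within, those 4 pairs were at 0.022, 0.035, 0.005 and 0.026. *Junb* and *Jund* followed at 0.065 and *Dusp1* and *Zfp36* at 0.055. For comparison, ranked within, 99% of 9441 genes outside the list had a correlation with *Fos* below 0.0658, with *Dusp1* below 0.0735 and with *Fosb* below 0.0482. After centring these limits were higher, at 0.242, 0.17 and 0.378. *Fos* with *Dusp1* then lay below the limit of *Fos*, and both *Fosb* pairs below that of *Fosb*. A weak correlation of sparse counts is no finding, and of the 45 pairs those among *Fos*, *Fosb* and *Dusp1* were the 3 highest when ranked within. In epidermal spots alone they were again highest, at 0.325, 0.234 and 0.221 for *Fos* with *Dusp1*, *Fosb* with *Dusp1* and *Fos* with *Fosb*.

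**Figure D4:**
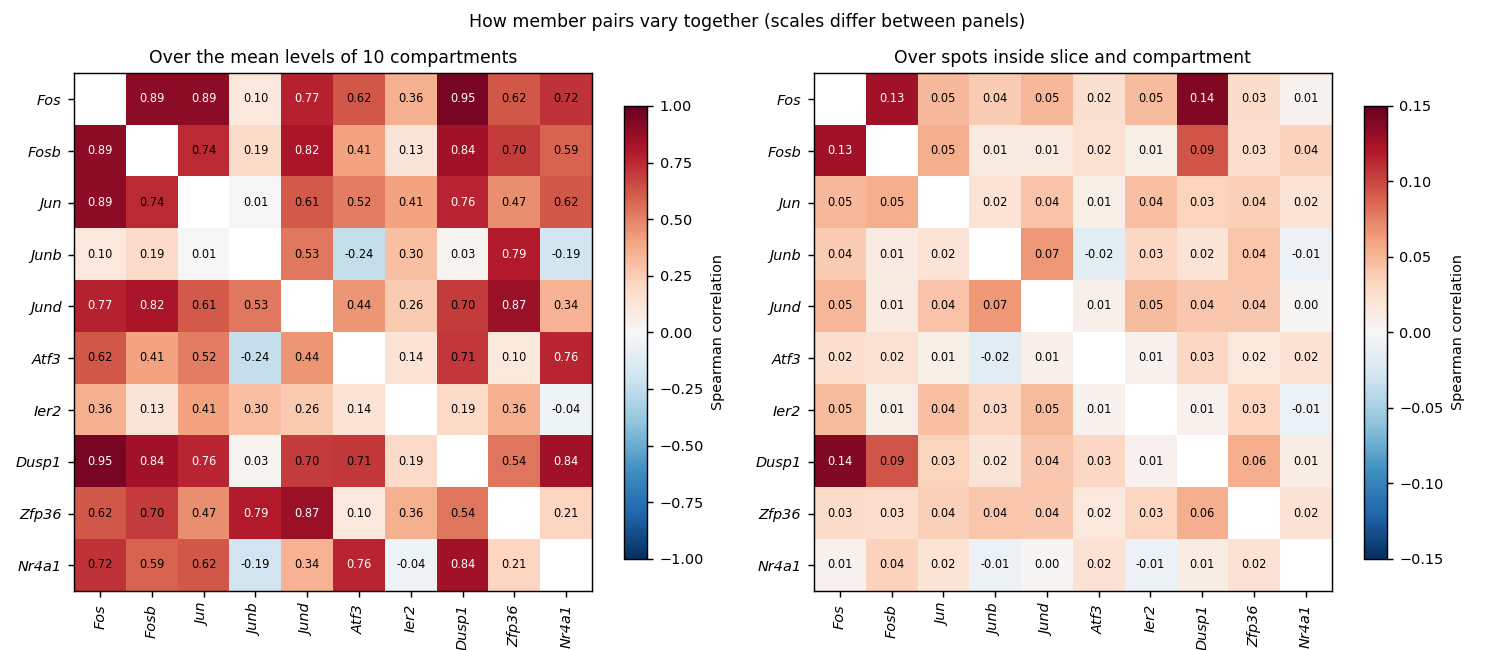
Spearman correlation of each pair of genes over the mean levels of 10 compartments (left, scale from -1 to 1) and over spots ranked within slice and compartment, as the mean of 4 slices (right, scale from -0.15 to 0.15). The pairs of *Fos*, *Fosb* and *Dusp1* are high in both panels (0.95, 0.89 and 0.84 left, 0.14, 0.13 and 0.09 right), while *Junb* stays near 0 with *Fos* and *Dusp1*.

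Spots were also split at the median *Fos* level within slice, compartment and depth class (3 per stratum), and the sums of the 2 classes compared with the slice as a block. *Fos* chose the classes, so its own difference is not a result. Since the median was mostly 0, the 1394 *Fos*-high spots were those with a *Fos* UMI in most strata and were not evenly spread, and 18% of them were epidermal against 5.35% of the 4912 *Fos*-low spots. Strip 3 held 43.7% of the *Fos*-high and 29.7% of the *Fos*-low spots. In this split *Fosb* (2.31), *Dusp1* (1.30), *Jun* (0.26), *Jund* (0.23) and *Ier2* (0.11) were higher, 5 of 9 other genes against a background of 13.8% of 13639 genes. Classes with equal numbers of spots per slice, compartment and depth class were therefore formed after this had been seen. *Fosb* was then 10.25, 9.416, 7.861 and 8.493 CPM in 1394 *Fos*-high and 4.741, 3.041, 2.270 and 3.496 in 1394 *Fos*-low spots (1.36 ± 0.19, adjusted p = 9.45e-06, edgeR). *Dusp1* was 69.48, 56.27, 54.15 and 70.40 CPM against 47.08, 37.89, 32.47 and 46.68 (0.60 ± 0.07, adjusted p = 6.41e-08). Each slice was higher in its *Fos*-high class for both genes. The other 7 genes lay between 0.01 (*Nr4a1*) and 0.27 (*Atf3*) and were not called, so 2 of 9 were, against 0.791% of 12512 genes.

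With the step from the epidermis balanced as well, *Fosb* (1.20, adjusted p = 0.00213, edgeR) and *Dusp1* (0.48, adjusted p = 0.000235) were higher, against 0.193% of 12404 genes. *Xist* was also higher there (0.40, adjusted p = 0.00738, edgeR). With the strip balanced too, in 1120 spots per class, *Fosb* was 1.05 ± 0.22 (adjusted p = 0.0186) and *Dusp1* 0.43 ± 0.08 (adjusted p = 0.00753), against 0.124% of 12129 genes. In 251 epidermal spots per class they were 1.24 (adjusted p = 0.00334) and 0.69 (adjusted p = 0.000209), against 0.380% of 6319 genes, and outside the epidermis 1.59 (adjusted p = 0.00147) and 0.56 (adjusted p = 3.37e-05), against 0.953% of 12281. *Jun*, *Junb*, *Jund*, *Ier2* and *Zfp36* were called in none of these 5 balanced comparisons. A split by *Junb* in place of *Fos* gave *Jund* (0.14 ± 0.03, adjusted p = 0.00387) and *Zfp36* (0.20 ± 0.06, adjusted p = 0.0487), against 3.27% of 13774 genes, and *Fos* (0.19, adjusted p = 0.0836) and *Dusp1* (0.01, adjusted p = 0.982) were not called. Its classes were not balanced, and hair shaft (9 of 9), inner root sheath (9 of 10) and melanocyte markers (6 of 6) were higher and skeletal muscle markers (10 of 10) lower in *Junb*-high spots. Their part was not tested.

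**Figure D5:**
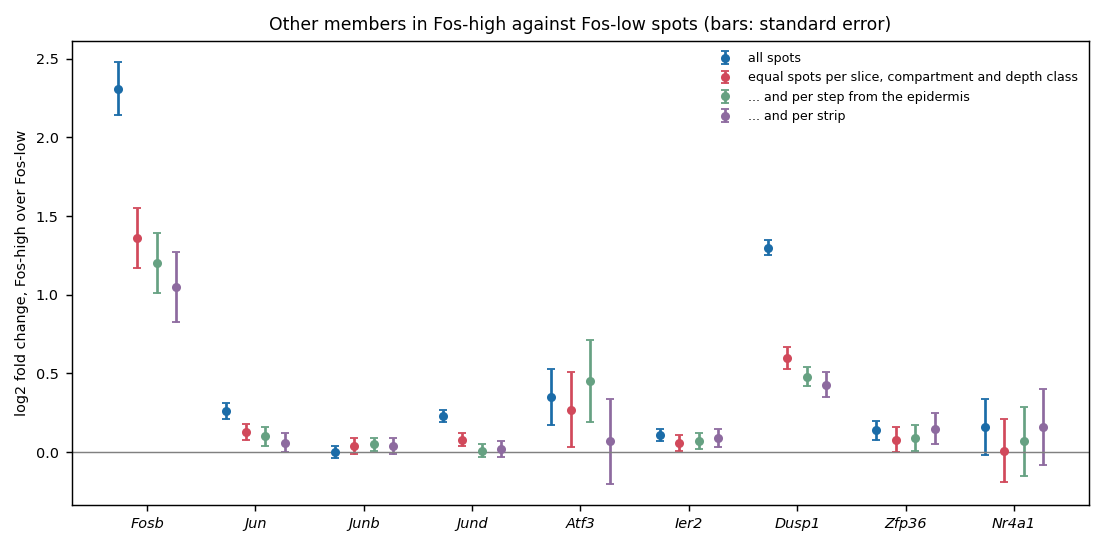
Log2 fold change of the other 9 genes in *Fos*-high over *Fos*-low spots, with bars for the standard error, for all spots and for 3 ways of balancing the classes. *Fosb* and *Dusp1* stay above 0 in each (1.05 and 0.43 with slice, compartment, depth, step and strip balanced), while *Jun* and *Jund* come down from 0.26 and 0.23 to 0.06 and 0.02.

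Markers of other cells moved with these classes. With slice, compartment and depth balanced, 10 of 12 epidermal markers were higher in *Fos*-high spots (median 0.31) and 4 of 10 macrophage and MHC class II markers, *H2-Ab1*, *H2-Aa*, *H2-Eb1* and *Cd74*, whose summed list level was 659.6 to 1083 CPM against 594.6 to 841.4. Upper follicle markers were higher in 3 of 10 cases, and hair shaft markers (9 of 9, median -0.17), melanocyte markers (4 of 6, -0.29) and skeletal muscle markers (4 of 10, -0.13) were lower. With step and strip balanced too, 3 of 11 epidermal markers (*Flg*, *Krtdap* and *Krt10*) and the same 4 MHC class II genes were higher. In epidermal spots alone, 7 of 11 epidermal markers were higher and 0 of 10 macrophage and MHC class II markers were called (median -0.03), while 4 of 10 skeletal muscle (median -0.44) and 3 of 10 fibroblast markers were lower. Outside the epidermis, 11 of 11 epidermal markers (median 0.71) and 7 of 9 macrophage and MHC class II markers (0.41) were higher. There, 9 of 9 hair shaft markers (-0.17) and 4 of 6 melanocyte markers (-0.27) were lower. The part of any of these cells in the difference was not tested. The called non-member genes with the largest changes in the fully balanced comparison were *Igha*, an antibody heavy chain gene (-1.68), *Gm10061* (0.76) and *Asb5* (0.65). Next by size came *Ccl21a*, a lymph vessel chemokine (-0.39), *H2-Ab1* (0.39) and *Flg*, the cornified layer protein filaggrin (0.39). *Dsc2* (-0.37) and *Cd74*, the MHC class II invariant chain (0.36), followed. Without balancing, the largest were *Cyp3a13* (2.16), *Kcnj16* (2.06) and *Flg* (1.92).

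The genes whose levels ran most like the sum of the 10 over spots of a slice and compartment were, by mean Spearman correlation over 4 slices, *Sbsn* (0.194), *Cst6* (0.191), *Krtdap* (0.188), *Krt77* (0.165), *Lgals7* (0.163), *H2-K1* (0.162), *Dsp* (0.161), *Krt15* (0.157), *Asprv1* (0.154) and *Trim29* (0.148), among 9448 genes with a UMI in at least 10% of spots. The median of genes outside the list was -0.0012. The sum was one of UMIs, and *Junb* (11998), *Jund* (11493), *Ier2* (8716) and *Jun* (7496) gave most of its 48682. *Sbsn* and *Krtdap* are also epidermal markers and *Cst6* an upper follicle marker used to place the spots. *Sbsn*, *Krtdap*, *Krt77* and *Asprv1* are genes of differentiating epidermis, *Dsp* encodes desmoplakin of desmosomes and *H2-K1* an MHC class I chain. Per gene and ranked within slice and compartment, the epidermal marker score correlated with *Dusp1* at 0.174 and with *Fos* at 0.160. The macrophage and MHC class II score was not far below, at 0.136 with *Dusp1* and 0.119 with *Fos*. *Junb* went with the inner root sheath (0.158) and hair shaft scores (0.155) instead.

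Other genes of the same pathways divided in the epidermis, where 21.8% of all genes tested were called higher and 17.4% lower. Of 9 other AP-1 and bZIP genes tested, 2 rose (*Mafk* and *Batf2*) and 1 fell (*Atf4*, -0.22), with a median of -0.08. Their share of higher genes was that of the background. *Fosl2*, *Mafg* and *Atf2* were not called (-0.08, -0.18 and -0.09). Of 17 other immediate-early genes, 5 rose (*Ccn1*, *Klf4*, *Csrnp1*, *Klf6* and *Egr1*) and none fell, with *Egr1*, a zinc finger factor, at 202.4 ± 23.0 CPM and 0.60 ± 0.09, and *Egr3*, *Sgk1* and *Ier5* not called (-0.01, -0.03 and -0.07). Of 12 MAP kinase and mRNA-decay feedback genes, 4 rose, among them *Zfp36l2* (0.69), a relative of *Zfp36*, and 4 fell, among them the phosphatase genes *Dusp2* (-0.94) and *Dusp5* (-0.44), opposite in sign to *Dusp1*. *Zfp36l1* was not called (-0.03). Of 10 heat shock genes, 3 rose and 5 fell. *Hspb1*, a small heat shock protein of differentiated keratinocytes, was higher (0.84, 1266 ± 56.5 CPM), and the chaperone genes *Hspa8* (-0.60), *Hsp90aa1* (-0.36) and *Hspa5* (-0.34) were lower. *Hspa1a* and *Hspa1b*, both called higher, are near-identical copies whose reads could be shared. Of 10 growth arrest and stress genes, 5 rose, among them *Hmox1* (0.48), *Mcl1* (0.33), *Txnip* (0.30) and *Cdkn1a* (0.23), and 2 fell.

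At the surface against the depth, where 32.7% of all genes were called higher and 31.8% lower, 12 of 19 other immediate-early genes were higher and 1, *Egr3* (-0.35), was lower, with *Sgk1* at 1.19 and *Egr1* at 1.05. Of the AP-1 and bZIP partners 3 of 10 were higher and 2 lower, of the feedback genes 4 of 14 and 5, of the heat shock genes 3 of 10 and 5, and of the growth arrest genes 4 of 10 and 2. The shares of higher genes in these 4 lists were near the background. Near fibroblast spots, where 5.01% of all genes were called higher and 4.10% lower, had 3 of 14 other immediate-early genes higher, *Sgk1* (0.67), *Egr1* (0.52) and *Ier3*, with *Zfp36l2* (0.67) and *Hspb1* (0.46) higher and *Hsp90aa1* (-0.54) and *Hspd1* lower in the other lists. In *Fos*-high spots with slice, compartment and depth balanced, *Klf4* and *Egr1* (0.25 ± 0.05, adjusted p = 0.00266, edgeR) of 18 other immediate-early genes were higher, and *Hspb1* (0.12) of 10 heat shock genes. With step and strip balanced, none of these 5 lists held a call, and *Egr1* was 0.16 ± 0.05 (adjusted p = 0.486).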

How the data were processed

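The authors deposited UMI counts per gene and spot for 4 Visium slices, made with Space Ranger 2.0.1 per the file headers on mm10 per the labels; other settings are not given in the sources used here. The 10 genes and all lists were chosen with earlier results of these data known. Spots with under 250 genes were removed (9), and each spot went to the marker list with the highest mean z-score, if at least 0.5 SD. UMI counts were summed per slice and class and tested with edgeR 4.0.16 (R 4.3.3; TMM, filterByExpr, quasi-likelihood test, Benjamini-Hochberg over all genes, threshold 0.05), with DESeq2 1.42.0 as an alternative. Compartment contrasts set each compartment against the mean of the other 9. Strip contrasts over all compartments used sums per slice, strip and compartment, without the slice as a block. *Fos* classes had the slice as a block. The tests were also run on counts simulated with independent sums and no slice effect. That run cannot show how they behave where sums of a slice deviate together. Scores, clusters and correlations used Python 3.11.15, SciPy 1.17.1 and scikit-learn 1.9.0.

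Of each pathway list the 4 genes with the most UMIs were named, and other list members only where a count was 5 or fewer, after their values were seen. The 10 genes most like the summed list and those leading the *Fos* classes were taken by rank. Balanced *Fos* classes, ranking within strata, the fit without hair shaft spots and the strips in epidermal spots alone were added after seeing the data. One section that the study left out as distorted could not be told apart here, so all 4 slices entered whole. Sums of a slice come from the same sections: same-slice sums deviated together (mean r 0.171, 0.104, 0.068 and 0.0962 in slices 1 to 4, against -0.0858 to -0.0523 between slices).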

Additional observations from a re-analysis of the deposited data

Results flagged for a closer look

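Of 100 groups of 4 slices, 3 held a slice far from the other 3, and chance flags about 1 in 20 such groups. *Dusp1* in inner root sheath spots was 15.74 CPM in slice 4 (56 UMIs) and 7.647 to 8.695 in the others. *Fos* in the same spots was 12.37 CPM in slice 4 (44 UMIs) and 7.453 to 7.965 in the others. *Zfp36* in adipose spots was 18.84 CPM in slice 2 (41 UMIs) and 27.98 to 28.99 in the others.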

How the results depend on the processing

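Of 83 called log2 fold changes of the 10 genes, 45 kept call and direction under every alternative run and 37 lost the call under at least 1, and of 1030 values under alternatives 912 kept direction and call, 116 lost the call and 2 turned. Those 2 were *Fos* (-0.29), which no alternative left uncalled otherwise, and *Dusp1* (-0.18) in strip 3 with epidermal spots alone, where 1 gene in place of 4 was lower in a strip. Thinning spots to 5500 UMIs left 19 of 29 calls of lower genes over the compartments. Of 5 other genes higher in *Fos*-high spots, 3 remained by count with no replicate block and 2 with equal numbers of spots per stratum, also by step, also by strip, in epidermal spots alone and outside the epidermis, and a *Junb* split gave 2. Leaving out a replicate gave 1 to 2 genes higher in near fibroblast spots (3 with all) and 1 to 3 lower in strips (4 with all). The median correlation over pairs was 0.0271 ranked within strata and 0.0424 after centring. The causes were not tested. In the epidermis, *Fos* stayed between 2.92 and 3.16, *Dusp1* between 2.90 and 3.15 and *Fosb* between 4.02 and 4.41 over the alternatives.

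The replicate block (slice) changed 6 of 148 calls: with it *Zfp36* was lower in fibroblast (-0.36) and higher in upper follicle spots (0.31), *Ier2* higher at the surface (0.17) and *Jund* higher in strip 3 (0.11), and without it *Jund* (0.23) and *Ier2* (0.11) were not called in *Fos*-high spots. Depth limits *Fosb*, *Atf3* and *Nr4a1* most, with 300 to 476 UMIs in all, and slices of the same 3 mice carry no spread between mice.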
